A study of Mus musculus with 2 samples.

Results

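The regions described here are macroH2A1 peaks that were assigned to an Ensembl gene without a gene symbol and lay within 50 kb of that gene. They numbered 465 of the 2560 peaks listed for the macroH2A1 library (18.2%, 95% Wilson interval 16.7 to 19.7%), were 465 distinct regions and belonged to 425 genes. The peaks came from E14, an established mouse embryonic stem cell line grown untreated with leukemia inhibitory factor (LIF). The design had 1 chromatin immunoprecipitation sequencing (ChIP-seq) library made with an antibody raised against a C-terminal part of mouse macroH2A1 and 1 made with non-specific IgG, both from the same line. The IgG library entered no comparison, and its values were not analysed here. With 1 macroH2A1 library there was no replicate check, so no difference between sets of peaks was tested. The intervals given for shares and medians cover counting error only, and neighbouring peaks of 1 library are not independent.

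MacroH2A1 is a variant of histone H2A that carries a large globular macro domain outside the nucleosome core. It is best known from the inactive X chromosome and from silent stretches of autosomes, where it occupies broad domains, and it has been linked to the stability of differentiated cell states. Ensembl genes without a symbol are a mixed class in annotations of this kind, which can hold copies of small RNA genes, pseudogenes and predicted transcripts. The deposited table gives for each of them an identifier, a strand, a start and an end, and no gene type. The RefSeq gene table at hand (assembly GRCm38.p6) carries no Ensembl identifiers, so the 425 genes could not be looked up in it, and each is called by its identifier. Coordinates are those of the deposited table, in build mm9.

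The distance that set the 50 kb limit is the deposited shortest distance, which in each of the 2560 rows equals the smallest gap between either end of the peak and either end of the gene. Members ranged from 13 to 49818 bp by this measure, with a median of 13.6 kb. The limit cut through a continuous run of values. Just inside it lay peaks of ENSMUSG00000084609 (49.4 kb), ENSMUSG00000084462 (49.5 kb), ENSMUSG00000064575 (49.5 kb), ENSMUSG00000077740 (49.6 kb) and ENSMUSG00000081888 (49.8 kb). Just outside it lay peaks of ENSMUSG00000081548 (50.2 kb), ENSMUSG00000048916 (50.3 kb), ENSMUSG00000065871 (51.0 kb), ENSMUSG00000078284 (51.2 kb) and ENSMUSG00000058816 (51.4 kb). The 465 members were 52.2% of the 891 peaks assigned to genes without a symbol. The sets they are compared with are the other 426 of these, which lay beyond 50 kb, and the 1181 peaks within 50 kb of a gene that has a symbol.

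The first question was what kind of genes these were, as far as their length shows it. They were short: the median length of the 425 genes was 388 bp (interquartile range 130 to 829 bp), below the median width of the peaks themselves (1551 bp). Genes under 200 bp received 167 of the 465 peaks (35.9%, 31.7 to 40.4%), genes of 200 to 2000 bp received 233 (50.1%, 45.6 to 54.6%) and longer genes 65 (14%, 11.1 to 17.4%). Counted over genes, the classes held 147, 219 and 59. Chromosomes 2, 4 and 11, picked out after the counts were seen, held 103 of the 233 peaks of the middle class. They held 32 of the 167 at genes under 200 bp. Given these counts, leaving them out had to lower the share of the middle class. Without them, 44.0% of the peaks were at genes under 200 bp (135 of 307, 38.5 to 49.6%). At genes of 200 to 2000 bp were 42.3% (130 of 307, 36.9 to 47.9%), so the 2 shares were about equal. The median lengths within the classes were 110, 483 and 9907 bp.

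Genes with a symbol formed a different length spectrum. Within 50 kb of a peak, none of 1075 such genes was under 200 bp (3 counts of the total, the limit used here for a count of 0, is 0.279%; the upper Wilson bound is 0.356%), and 92.3% (90.5 to 93.7%) were over 2000 bp. Their median length was 26413 bp. Among peaks without a symbol beyond 50 kb, the shares were 51.6% under 200 bp (220 of 426, 46.9 to 56.4%), 37.6% from 200 to 2000 bp (33.1 to 42.2%) and 10.8% longer (8.19 to 14.1%). The nearer peaks thus had a smaller share of the shortest genes and a larger share of the middle class, with intervals that did not overlap for either. No test of this difference was made.

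**Figure D1:**
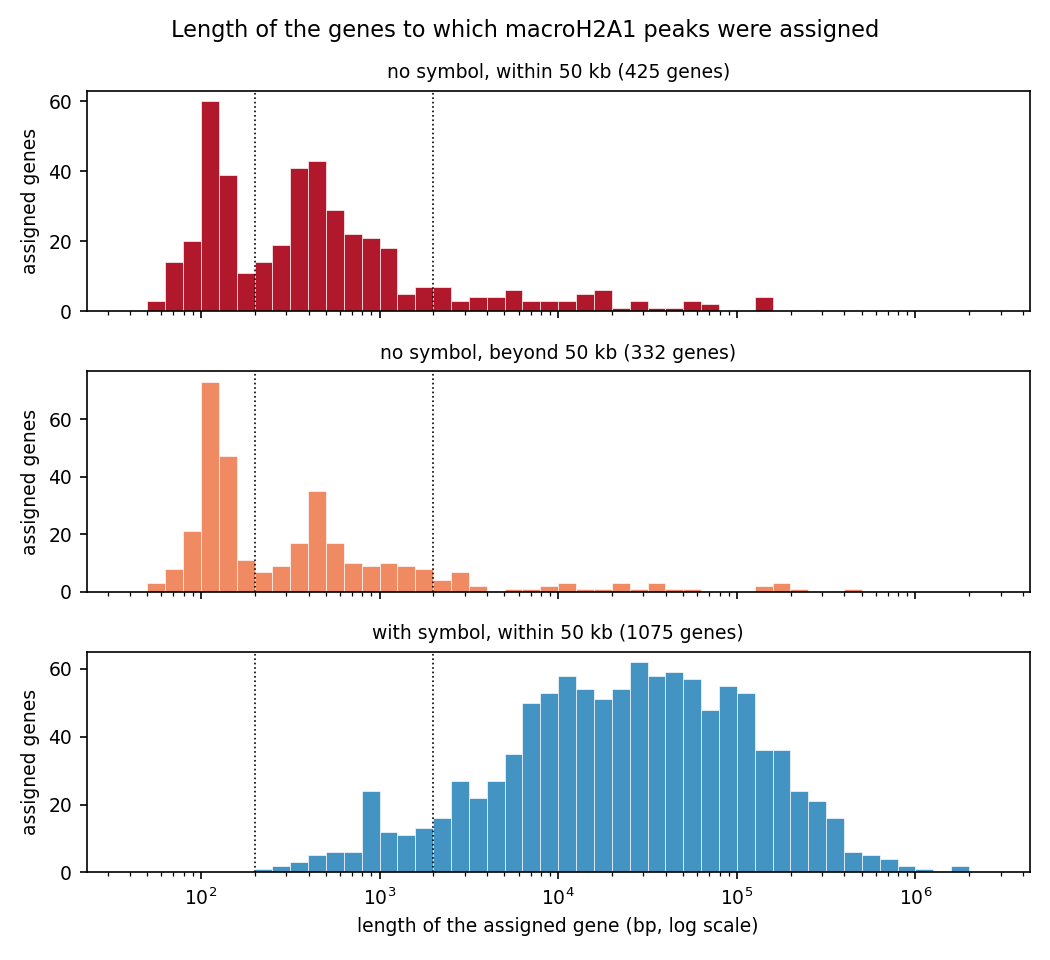
Length of the assigned genes (x axis, bp, log scale) against the number of genes (y axis), for genes without a symbol within 50 kb of a peak, without a symbol beyond 50 kb, and with a symbol within 50 kb; dotted lines mark 200 and 2000 bp. The 425 genes of the first panel form a narrow group near 110 bp and a broader one near 483 bp, while the 1075 genes with a symbol centre on 26413 bp.

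The shortest genes were concentrated in a narrow range. Of the 147 genes under 200 bp, 94 were 100 to 139 bp long, 37 were under 100 bp and 16 were 140 bp or longer. Some exact lengths recurred: 8 lengths were shared by 4 or more genes each, and 53 of the 147 short genes had one of them. These lengths were picked out after the values were seen, and the ranges of identifier numbers given with them followed no rule set beforehand. The commonest was 107 bp, the length of 15 genes on 13 chromosomes, of which 14 had an identifier number between 64000 and 65999. Next came 132 bp, with 13 genes on 11 chromosomes, of which 11 had a number between 77000 and 77999. Genes of 109 bp numbered 7 and genes of 110 bp numbered 6. The same lengths were found, to unequal extents, among the genes whose peaks lay beyond 50 kb. There, 24 were 107 bp, 19 were 132 bp, 10 were 110 bp and 1 was 109 bp long.

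Peaks at these recurring lengths were spread in width and distance. The 16 peaks at 107 bp genes were 1051 to 2351 bp wide (median 1326 bp) and lay at a median of 9.01 kb from the gene start. For 11 of them the midpoint was upstream and for 5 downstream. The 13 peaks at 132 bp genes were 1401 to 2451 bp wide (median 1551 bp), at a median of 26.8 kb, with 7 upstream and 6 downstream. The 8 peaks at 109 bp genes had a median width of 2026 bp and a median gap of 1.85 kb. Each of these medians rests on few peaks with wide ranges.

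At the short end, the smallest assigned genes were ENSMUSG00000080516 (58 bp), ENSMUSG00000080436 (59 bp), ENSMUSG00000077889 (63 bp), ENSMUSG00000066080 and ENSMUSG00000080371 (64 bp each). A peak of ENSMUSG00000080436 on chromosome 3 (96144900 to 96146350) ended 0.412 kb before the gene's start. At the long end were ENSMUSG00000067356 (157 kb), ENSMUSG00000063245 (156 kb), ENSMUSG00000055632 (146 kb), ENSMUSG00000074667 (135 kb) and ENSMUSG00000075290 (76.2 kb). Of these 5 long genes, 3 had their peak upstream, and ENSMUSG00000055632 and ENSMUSG00000075290 had it inside the gene.

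The second question was where the peaks lay relative to the genes. They were divided nearly evenly between the 2 sides. In the deposited classes, 224 were upstream (48.2%, 43.7 to 52.7%) and 209 downstream (44.9%, 40.5 to 49.5%), and counted by midpoint, 231 were upstream and 234 downstream of the start. Within 5 kb of the gene start there were 57 midpoints upstream and 54 downstream. Within 10 kb there were 91 and 86. At genes with a symbol within 50 kb, 53.3% of peaks were upstream (50.5 to 56.2%) and 21.7% downstream (19.4 to 24.1%). Counted by midpoint, which also places the peaks inside a gene, 54.1% of these were upstream (51.3 to 56.9%) and 45.9% downstream (43.1 to 48.7%), against 49.7% (45.2 to 54.2%) and 50.3% (45.8 to 54.8%) of the members, with intervals that overlapped.

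Few peaks lay inside an assigned gene, and those that did were at long genes. Inside peaks numbered 13 (2.80%, 1.64 to 4.72%), against 22.7% (20.4 to 25.2%) at genes with a symbol. A gene shorter than the smallest peak width of 1051 bp cannot contain a peak, so most of these genes could not be in this class. Among genes over 2000 bp, 13 of 65 peaks were inside (20.0%, 12.1 to 31.3%). They lay in 12 genes of 4.18 to 146 kb, at 0.724 to 27.8 kb from the gene start. The same length dependence held for the reverse case, a peak that spans the whole gene: 9 members did so (1.94%, 1.02 to 3.64%), all at genes of 64 to 333 bp, and 2 of the 1181 peaks at genes with a symbol.

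**Figure D2:**
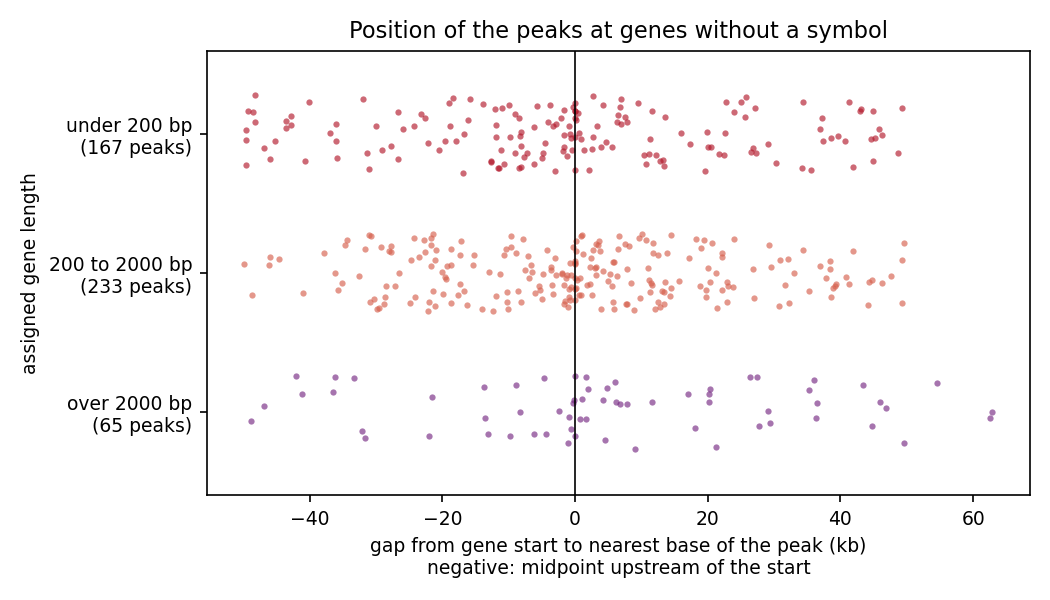
Gap from the start of the assigned gene to the nearest base of the peak (x axis, kb, negative where the midpoint is upstream) for each of the 465 peaks, in 3 rows by gene length, with points spread vertically only for visibility. Points fall on both sides of the start in each row, 231 upstream and 234 downstream in all.

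The 50 kb limit bounds the distances of the members, and beyond it lay a further 220, 160 and 46 peaks at genes without a symbol that were under 200 bp, of 200 to 2000 bp and longer. Within the limit, the median gap from the gene start was 14.5 kb over all members (interquartile range 5.65 to 29.3 kb), and 15.8, 14.4 and 18.2 kb for genes under 200 bp, of 200 to 2000 bp and longer. A gap of at most 5 kb was found for 22.8% (17.1 to 29.7%), 23.6% (18.6 to 29.5%) and 27.7% (18.3 to 39.6%) of their peaks. Peaks at genes with a symbol within 50 kb had a median gap of 14.9 kb. For 3 members, downstream of the long genes ENSMUSG00000074927, ENSMUSG00000079564 and ENSMUSG00000074363, the gene start was more than 50 kb away (62.5, 62.9 and 54.5 kb), though the gene end was not. These 3 were singled out after their values were seen.

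The gene start itself was covered by 14 peaks on 9 chromosomes (3.01%, 1.80 to 4.99%), against 16 of 1181 at genes with a symbol (1.35%, 0.836 to 2.19%). The intervals overlapped. Of the 14, 9 spanned the whole gene. They were at ENSMUSG00000066080 (64 bp, chromosome 10, peak 42854400 to 42856450), ENSMUSG00000080371 (64 bp, chromosome 8, 111211950 to 111214000), ENSMUSG00000065143 (107 bp, chromosome 19, 51314000 to 51315500), ENSMUSG00000076218 (109 bp, chromosome 17, 7098350 to 7100300) and ENSMUSG00000064798 (109 bp, chromosome 4, 149191450 to 149193750). The others spanned ENSMUSG00000077752 (137 bp, chromosome 15), ENSMUSG00000084130 (214 bp, chromosome 11), ENSMUSG00000079285 (267 bp, chromosome 1) and ENSMUSG00000057764 (333 bp, chromosome 13). The genes spanned in this way were thus spread over 9 different chromosomes.

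A further 5 peaks covered only the start. These were at ENSMUSG00000065629 (214 bp, chromosome 1), ENSMUSG00000084310 (838 bp, chromosome 11), ENSMUSG00000070729 (1487 bp, chromosome 4), ENSMUSG00000074302 (2448 bp, chromosome 8) and ENSMUSG00000050873 (16061 bp, chromosome 8). The last lay at 15009650 to 15011100 and barely overlapped its gene, ending 75 bp past the first base. The 14 peaks over a start were 1051 to 2301 bp wide.

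The widths of the members followed those of the list as a whole. The median was 1551 bp (interval 1551 to 1601 bp; range 1051 to 4551 bp), with 1601 bp (1551 to 1601 bp) at genes with a symbol within 50 kb and 1501 bp (1451 to 1551 bp) at genes without a symbol beyond 50 kb. By gene length the medians were 1551 bp under 200 bp (1501 to 1601 bp), 1551 bp from 200 to 2000 bp (1501 to 1601 bp) and 1651 bp above (1551 to 1701 bp). The 177 peaks with a gap of at most 10 kb had a median of 1651 bp (1551 to 1701 bp) and the 288 farther ones 1551 bp (1451 to 1601 bp). At genes with a symbol the order was the other way, 1551 bp (1501 to 1601 bp) near and 1601 bp (1601 to 1651 bp) far. The intervals overlapped at genes without a symbol and met at 1601 bp at the others.

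**Figure D3:**
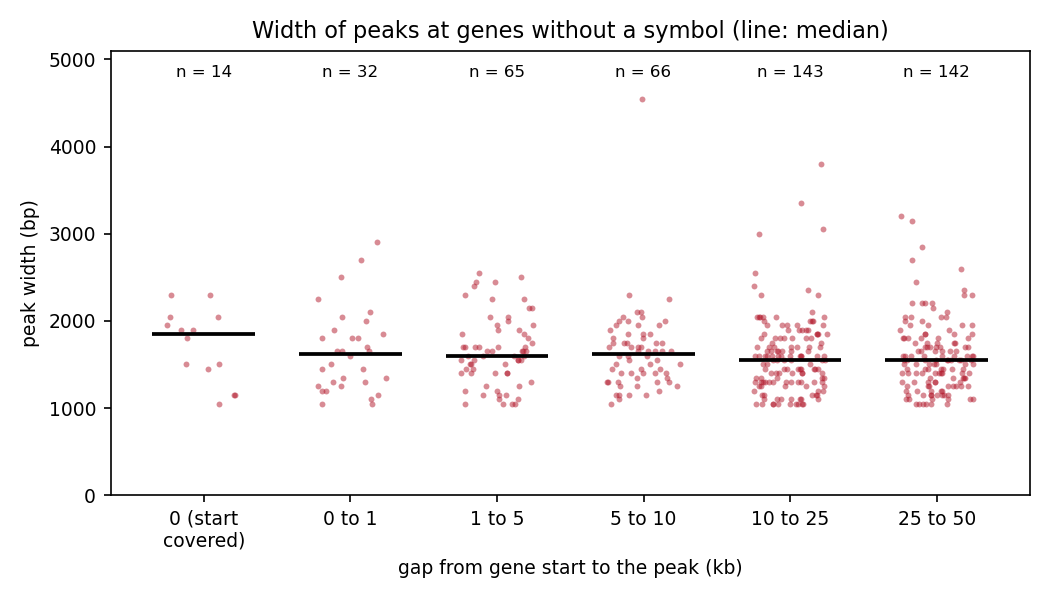
Peak width (y axis, bp) by the gap from the gene start (x axis, kb) for the peaks at genes without a symbol, with the number of peaks above each bin and a line at the median; the 3 peaks with a gap over 50 kb are left out. The medians run from 1851 bp for the 14 peaks over a gene start to 1551 bp in the 2 farthest bins, inside the scatter of the single peaks.

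A few members were far wider than the rest, 16 of 465 being over 2500 bp (3.44%, 2.13 to 5.52%, against 2.71%, 1.93 to 3.80%, at genes with a symbol). The widest, 4551 bp, was the widest of the whole list and lay on chromosome 4 (34874850 to 34879400), 8.47 kb from the start of ENSMUSG00000083956, a gene of 1392 bp. The nearest gene with a symbol that had a peak of its own there was Cnr1, the cannabinoid receptor gene, 839 kb away. Next were a peak of 3801 bp on chromosome 18 at ENSMUSG00000084472 (115 bp) and a peak of 3351 bp on chromosome 4 (3007800 to 3011150) at ENSMUSG00000081279 (834 bp). The latter had the lowest start coordinate of all 2560 peaks. Mouse chromosomes in this build begin with an unsequenced gap at the centromere.

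The widths of 3201, 3151, 2901, 2851 and 2701 bp belonged to ENSMUSG00000041512 on chromosome 5 (117233100 to 117236300), ENSMUSG00000084045 on chromosome 11 (10236150 to 10239300), ENSMUSG00000078581 on chromosome 11 (117987950 to 117990850), ENSMUSG00000077749 on chromosome 10 (34872700 to 34875550) and ENSMUSG00000081582 on chromosome 11 (6548050 to 6550750). The last covered the end of its gene, and the peak of ENSMUSG00000078581 lay 0.998 kb upstream of the gene start. A second peak of 2701 bp, at ENSMUSG00000047692 on chromosome 10 (70297050 to 70299750), tied in width with that of ENSMUSG00000081582. Peaks of 3051 and 3001 bp flanked the same 87 bp gene, ENSMUSG00000080658, and are described with the runs of peaks. No other pair among these peaks shared an assigned gene.

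The third question was on which chromosomes the peaks lay. Chromosomes 2, 4 and 11 held more of them than of the other peaks of the list. Chromosome 2 had 61 members (13.1%, 10.3 to 16.5%, against 6.25%, 5.29 to 7.37%, of the 2095 other peaks). Chromosome 4 had 50 (10.8%, 8.25 to 13.9%, against 6.21%, 5.25 to 7.32%) and chromosome 11 had 47 (10.1%, 7.69 to 13.2%, against 4.49%, 3.68 to 5.46%). These were the 3 chromosomes of 20 whose intervals did not overlap, and they are grouped here after these counts were seen. Chromosome 5, which had the most peaks in the list, had 38 members of its 250 peaks (15.2%, 11.3 to 20.2%), and chromosome X had 7 of 26 (26.9%, 13.7 to 46.1%).

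**Figure D4:**
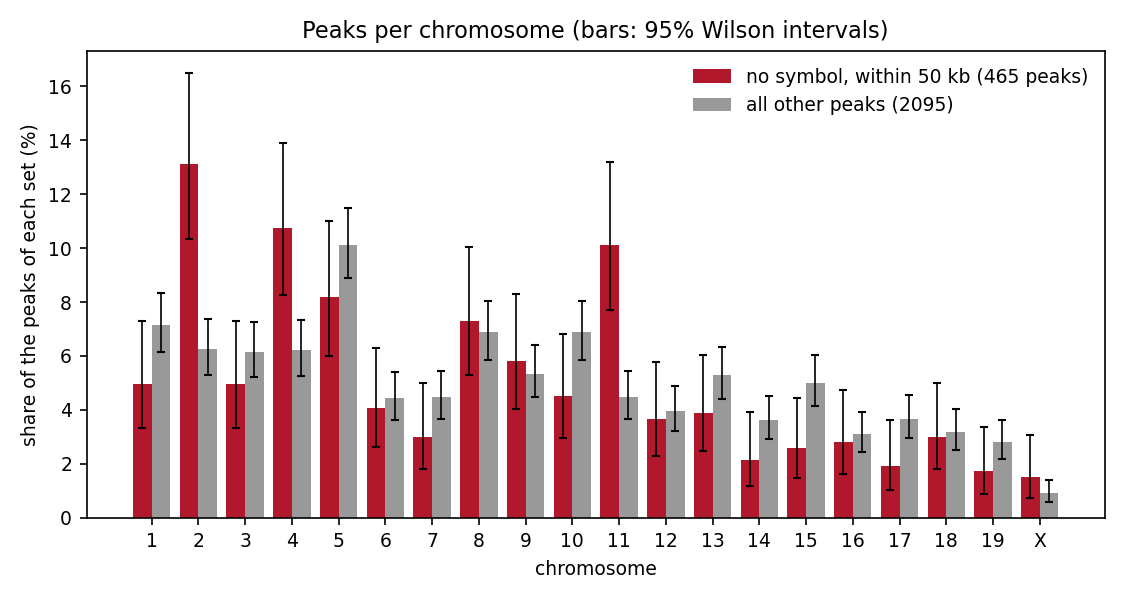
Share of the peaks on each chromosome (y axis, percent; x axis, chromosome) for the 465 peaks within 50 kb of a gene without a symbol and for the 2095 other peaks, with 95% Wilson intervals. Chromosomes 2, 4 and 11 reach 13.1%, 10.8% and 10.1% against 6.25%, 6.21% and 4.49%.

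The excess on these chromosomes differed by gene length, and also by identifier number, which is given below. Together they held 34.0% of the members (158 of 465, 29.8 to 38.4%), but 19.2% of the peaks at genes under 200 bp (32 of 167, 13.9 to 25.8%) and 44.2% of those at genes of 200 to 2000 bp (103 of 233, 38.0 to 50.6%). For longer genes the share was 35.4% (23 of 65, 24.9 to 47.5%). Of the peaks at genes with a symbol within 50 kb, 18.6% lay there (16.5 to 20.9%). The peaks at genes without a symbol beyond 50 kb, which the 50 kb limit left out, had the same order: 6.82% at genes under 200 bp (15 of 220, 4.18 to 10.9%) and 36.9% at genes of 200 to 2000 bp (59 of 160, 29.8 to 44.6%).

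The identifiers of the genes went with both length and chromosome. The ranges of identifier numbers used here and below followed no rule set beforehand, so the contrasts between them are descriptive only. Of the 425 genes, 109 had an identifier number from 81000 to 83999, and 98 of these were 200 to 2000 bp long (median over the 109 genes 525 bp). On chromosomes 2, 4 and 11 lay 78 of the 109 (71.6%, 62.5 to 79.2%): 30, 25 and 23. Of the other 316 genes, 67 lay there (21.2%, 17.1 to 26.0%). Among these others the share was 15.8% under 200 bp (22 of 139, 10.7 to 22.8%). It was 22.3% from 200 to 2000 bp (27 of 121, 15.8 to 30.5%) and 32.1% above (18 of 56, 21.4 to 45.2%). Outside this range of numbers, the middle class thus did not have the highest share. Among the 7 genes on chromosome X, 5 had a number in this range. Of the 57 genes in this range whose peaks lay beyond 50 kb, 39 were on these 3 chromosomes (68.4%, 55.5 to 79.0%), and no gene with a symbol within 50 kb of a peak had such a number. How many genes without a symbol the annotation held on each chromosome was not analysed here, and its part in the chromosome shares was not tested.

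Most of the 147 genes under 200 bp had other identifier numbers, and 8 were numbered 81000 to 83999. They included 15 numbered 66000 to 76999, 22 numbered 78000 to 80999 and 21 numbered 84000 to 84999. All 42 genes numbered 77000 to 77999 were under 200 bp (63 to 193 bp), as were 39 of the 43 numbered 64000 to 65999. Of these genes 8 and 6 lay on chromosomes 2, 4 and 11 (19.0%, 9.98 to 33.3%, and 14%, 6.56 to 27.3%). The peaks at genes numbered 81000 to 83999 had a median width of 1501 bp and a median gap of 17.5 kb, and the other members 1601 bp and 13.5 kb.

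The fourth question was how the peaks were grouped. Most genes had a single one: 392 of 425 had 1 peak within 50 kb, 28 had 2, 4 had 3 and 1 had 5. The share with 2 or more was 7.76% (5.58 to 10.7%), and 8.19% (6.69 to 9.98%) for genes with a symbol. A further peak beyond 50 kb belonged to 34 of the 425 genes. Another peak of the list lay within 50 kb of 111 members (23.9%, 20.2 to 27.9%), against 21.5% (19.3 to 23.9%) of peaks at genes with a symbol and 16.9% (13.6 to 20.8%) of peaks without a symbol beyond 50 kb.

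The run with the most peaks was at ENSMUSG00000084548, a gene of 117 bp on chromosome 5, in the interval between the bodies of Med13l and Tbx3, the latter a T-box regulator of limb, heart and stem cell programmes. Its 5 members lay downstream of the gene at gaps of 6.30, 7.85, 22.6, 25 and 45.2 kb, and were 1151, 1751, 2051, 1851 and 2201 bp wide. Together they spanned 41.1 kb (119753550 to 119794650). They came in close pairs, with the fifth standing apart, and the body of Tbx3 was 326 to 366 kb away. The gene's other 4 peaks were beyond 50 kb and are not members: 1 lay upstream (119639200 to 119640500, 107 kb from the start) and 3 downstream, at 80.0 to 107 kb.

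The 4 genes with 3 peaks each lay on chromosomes 2, 4 and 5. ENSMUSG00000080658, the 87 bp gene on chromosome 4, had a peak of 3051 bp 16.8 kb upstream (139458800 to 139461850), a peak of 1401 bp 4.21 kb downstream (139482850 to 139484250) and a peak of 3001 bp 16.0 kb downstream (139494600 to 139497600). The start of Pax7, a muscle and neural crest regulator, was 69.9 to 106 kb from these peaks, and the body of Klhdc7a, a kelch-domain gene, 18.5 to 54.3 kb. ENSMUSG00000081079, of 565 bp and also on chromosome 4, had peaks 44.6 kb upstream and 3.16 and 13.8 kb downstream (141486450 to 141548300 in all), 1651, 2151 and 1801 bp wide.

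ENSMUSG00000082365, of 478 bp on chromosome 5, had peaks 40.9 and 34.3 kb upstream and 3.90 kb downstream (118910400 to 118958300 in all), 1501, 1951 and 1551 bp wide. The body of Med13l, which encodes a subunit of the Mediator coactivator, was 52.5 to 98.9 kb away. ENSMUSG00000075416, a longer gene of 3894 bp on chromosome 2, had peaks 6.24 kb upstream and 6.06 and 26.4 kb from its start on the other side (30544350 to 30580200 in all), 1401, 1301 and 1801 bp wide. In each of these 4 genes the peaks thus stood on both sides of the start, while the 5 within 50 kb of ENSMUSG00000084548 stood downstream.

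**Figure D5:**
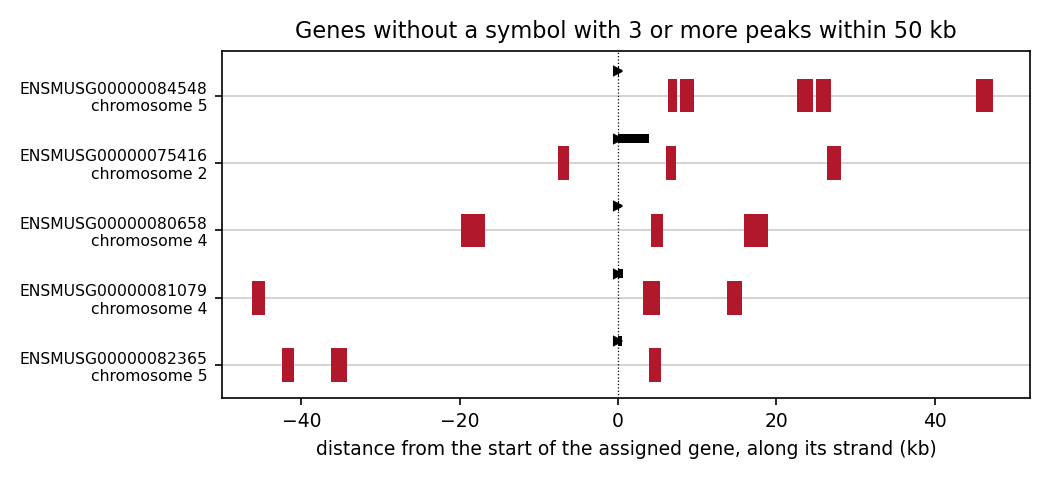
Peaks (red blocks, to scale) of the 5 genes without a symbol that had 3 or more peaks within 50 kb, by their distance from the gene start along the gene's strand (x axis, kb); black arrowheads mark the start and black bars the gene. ENSMUSG00000084548 has 5 peaks within 50 kb, all downstream, and the other 4 genes have 3 each, on both sides.

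The last question was which named genes of the list were nearby. Only genes with a symbol that had a peak of their own could be found, 1409 in all, so a closer named gene without a peak would be missed. The nearest body of such a gene was at a median of 434 kb from the members (interquartile range 148 to 1207 kb). It was within 50 kb of 53 members (11.4%, 8.82 to 14.6%). Another named gene of the list was within 50 kb of 80 of the 1181 peaks at genes with a symbol (6.77%, 5.48 to 8.35%). A named gene start lay within 50 kb of 26 members (5.59%, 3.84 to 8.07%) and under none of them. Since the deposited assignment goes by nearest start, it restricts how near another gene's start can be. For these distances within 50 kb, the peaks beyond 50 kb are therefore not compared.

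Within a named gene of the list lay 18 members (3.87%, 2.46 to 6.04%), each with its whole width, in 17 genes. Such overlap was not confined to the members, since 16 of 426 peaks without a symbol beyond 50 kb overlapped a named gene (3.76%, 2.32 to 6.01%). Under the nearest-start assignment no named start lay within 50 kb of those peaks, so the 2 shares are not like measures. Of the 1181 peaks at genes with a symbol, 8 overlapped a named gene other than their own (0.677%, 0.344 to 1.33%). Their own gene was again left out, though 268 of these peaks lay inside it, so this share is not a like measure either. For each of the 18 members the start of the gene without a symbol was nearer to the peak than that of the named gene. The named genes included Myrip, a linker of Rab27 vesicles to myosin, with 2 peaks on chromosome 9 (120244950 to 120246900 and 120338800 to 120340300). Others were Adcy5, an adenylyl cyclase, Scn11a, a sodium channel of sensory neurons, Dpp6, an auxiliary subunit of potassium channels, Ptprb, an endothelial phosphatase, Fancc, a DNA repair gene, and Disc1. These were chosen after their values were seen. The distance from the peak to the start of the named gene ran from 13.1 kb, at Tcfap4, to 320 kb, at 6130401L20Rik. The assigned genes of these 18 peaks were under 200 bp in 9 cases and from 200 to 2000 bp in 7.

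Developmental genes were among the nearest named neighbours in small numbers. Of the 334 different named genes that were nearest to a member, 9 were on a list of 165 developmental transcription factors (2.69%, and 32 of all 1409 named genes of the peak list, 2.27%). The numbers were 8 for 95 signalling genes (2.40% and 1.28%), 5 for 39 pluripotency genes (1.50% and 0.710%) and 5 for 76 neuronal genes (1.50% and 1.49%). No test was made of these shares, each of which rests on few genes.

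The closest of these neighbours was Pax2, a regulator of kidney and midbrain development. A peak of 2401 bp on chromosome 19 (44919700 to 44922100), 3.68 kb upstream of ENSMUSG00000058350 (693 bp), lay 9.18 kb from the body of Pax2 and 87.8 kb from its start. A peak of 1301 bp on chromosome 11 (85740650 to 85741950) at ENSMUSG00000081632 lay 11.1 kb from the body and 40.7 kb from the start of Tbx4, a regulator of hindlimb outgrowth. A peak of 1401 bp on chromosome 19 (30578350 to 30579750) at ENSMUSG00000058816 lay 41.6 kb from Dkk1, a secreted Wnt inhibitor. No other member was within 50 kb of a gene of the 4 lists that had a peak of its own. Such genes were 32 of the 165 developmental transcription factors, 18 of the 95 signalling genes, 10 of the 39 pluripotency genes and 21 of the 76 neuronal genes. The other genes of the lists were not looked for.

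The next neighbours were farther away. On chromosome 3 a peak of 1551 bp (34487300 to 34488850) at ENSMUSG00000084530, a 79 bp gene, lay 60.1 kb from Sox2, a core pluripotency factor. On chromosome 19 a peak at ENSMUSG00000076323 lay 63.1 kb from Sfrp5, another secreted Wnt antagonist. Sfrp5 was not the nearest named gene of the list, since the body of Crtac1 was 16.2 kb from this peak. On chromosome 13, 2 peaks of 1701 and 2551 bp (83867650 to 83869350 and 83874000 to 83876550) lay 9.06 and 1.86 kb upstream of ENSMUSG00000065424, an 87 bp gene, and 64.7 and 71.1 kb from the body of Mef2c, a regulator of muscle and neurons. The start of Mef2c was 224 and 231 kb from them.

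On chromosome 8, ENSMUSG00000074473, of 1839 bp, had 2 members downstream, of which the farther (12328400 to 12330000) lay 66.4 kb from Sox1, a marker of neural progenitors, and the nearer (12295950 to 12297250) 99.1 kb. The peaks of ENSMUSG00000080658 that lay 69.9 and 94.0 kb from Pax7 were also among the 10 nearest, though the body of Klhdc7a was nearer to both. In each of these cases the assigned gene without a symbol was closer to the peak than the start of the developmental gene, as the deposited assignment to the nearest start requires.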

How the data were processed

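The submitters' processing notes name Bowtie and the mouse build NCBIM37 (mm9). The authors deposited 1 table of peaks for the macroH2A1 library. Its peak names begin with CCAT, and its columns, per the file headers, give each peak's start, end and width, the gene with the nearest start, that gene's coordinates, symbol and 2 distances, in bp. For the caller's version, threshold, control and read filters, the sources used here give nothing. The table has no read count or score, so depth is unknown. In the deposited header the names stand 1 cell to the left of the data, and columns were read by their data position. Width and position class follow from the coordinates in 2560 of 2560 rows.

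Members were rows with the symbol NA and a deposited shortest distance of at most 50000 bp. The gap to the gene start was recomputed to the nearest base of the peak. Shares have Wilson intervals and medians exact binomial intervals, both at 95% (Python 3.11.15, scipy 1.17.1). No test was made. Genes are named by rule: genes with 3 or more peaks, the 10 widest peaks (with a tie for the last), peaks over a gene start, the 5 shortest and 5 longest genes, the 10 peaks closest to a gene of the 4 lists, and 5 peaks on each side of the limit. Those named outside it are marked in the text. The members and lists were chosen with earlier results of these data known. Position, gap and distance calculations were tested on simulated data. No sequence is shown, since a genome of build mm9 was not used here.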

Additional observations from a re-analysis of the deposited data

How the results depend on the processing

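No paired analysis was possible because each group has 1 sample. Of 129 values recomputed under other settings, 107 stayed within the interval of the reported value and 22 did not. The cause was not tested except where the setting itself fixes the value. Some of the 107 could not differ, so this count overstates how stable the values were. No member region was duplicated, and each position class already followed from the coordinates. Each member within a named gene lay there with its whole width, so a stricter overlap changed nothing. The share of all peaks was 12.7% with a limit of 25 kb, 6.99% with 10 kb and 23.4% with 100 kb. With 10 kb, 36.9% of members were downstream, 5.59% inside and 10.6% overlapping a gene start, end or whole gene, the median width was 1651 bp, and 4.68% of genes had 2 or more peaks (5.23% with 25 kb). By midpoint 50.3% were downstream. Among peaks wider than the list's median the median width was 1851 bp, 2.16% lay in a named gene and 8.62% within 50 kb of one. Over all members, but measured to the named gene's start, the last 2 shares were 0% and 5.59%. Chosen after seeing the data were 3 settings and the share on chromosomes 2, 4 and 11. Without those chromosomes, members were 15% of all peaks, and 12.4% of the members lay on chromosome 5. Of these members, 44.0% were at genes under 200 bp and 42.3% at genes of 200 to 2000 bp, with intervals that overlapped. Among peaks whose number in the deposited peak name was in the lower part of the list, split at the middle, 2.06% lay in a named gene, 5.26% of genes had 2 or more peaks and the median width was 1701 bp. Precision per peak could not be derived, because depth is unknown.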
